A study of Homo sapiens with 15 samples.

Results

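The chaperonin TRiC, also named CCT, is assembled from 8 related subunits that are encoded by TCP1, CCT2, CCT3, CCT4, CCT5, CCT6A, CCT7 and CCT8. These 8 genes were taken by symbol, and each symbol matched a single Ensembl gene ID among the 58395 genes of the deposited counts table. All 8 passed the low-count filter, as did 16889 genes in all. The cells were H1299, a widely used human carcinoma line of the lung (non-small cell type), so every value below describes 1 line. After an earlier period in complete medium with serum, all cells spent 12 h in RPMI without serum. The media differed in their nutrients: neither glucose nor glutamine, 5 mM glucose alone, 4 mM glutamine alone, both at these doses, or 5 mM glucose with 4 mM NH4Cl, an ammonium salt. Poly(A) RNA was sequenced in 3 libraries per medium, 15 libraries in all. The labels speak of triplicate cells and name no day or batch, so p-values reflect the spread of these libraries, which may be a technical one.

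The chaperonin is a pair of stacked rings, each of which holds every subunit once in a fixed order, and it encloses unfolded proteins in a chamber that closes when ATP is bound and hydrolysed. Actins and tubulins depend on it to fold, and proteins with WD40 propellers are another group of its clients. Prefoldin hands newly made chains to the rings, and phosducin-like proteins act beside them as cochaperones. The rings need every subunit in equal number, and the genes are expressed broadly, with high levels in many cancer lines.

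Library totals ran from 14914127 to 19938691 counts, and the TMM factor was 0.793 in the libraries with neither nutrient against 1.006 to 1.086 in the others. The carcinoma line's markers KRT8 (154 to 578 CPM), KRT18 (288 to 679 CPM) and VIM (1814 to 2683 CPM) were present in every library. EPCAM had 0 to 16 counts and KRT19 12 to 26 counts. Summed over 5 genes, fibroblast markers reached at most 2.99 CPM, and 4 endothelial markers at most 1.81 CPM. The 5 leukocyte markers summed to 5.76 to 7.52 CPM with neither nutrient, 4.89 to 5.67 with glutamine and 5.07 to 6.03 with both, and to 1.76 to 1.93 with glucose and 1.81 to 2.36 with NH4Cl. Of these, CORO1A had 17 to 94 counts and was the 1 tested (log2 -2.04 ± 0.184 for glucose against neither nutrient), while PTPRC and CD79A had at most 12 counts, LYZ at most 3 and CD3E at most 2. Their part in the results was not tested.

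The library of glucose replicate 2 stood apart from the other glucose libraries. The chi-square of its counts per degree of freedom was 2.46 and 2.43 against them, beside 1.23 to 1.65 for all other pairs of libraries of one medium. Results on the glucose medium are therefore also given without it.

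The 8 genes lie on 7 chromosomes (GRCh38). TCP1, which encodes the alpha subunit (ENSG00000120438), lies at chr6:159778498-159789749 on the minus strand. CCT2 (beta, ENSG00000166226) lies at chr12:69585334-69601570 on the plus strand and CCT3 (gamma, ENSG00000163468) at chr1:156308968-156367873 on the minus strand. CCT4 (delta, ENSG00000115484) at chr2:61868089-61888804 on the minus strand and CCT7 (eta, ENSG00000135624) at chr2:73233420-73253021 on the plus strand share chromosome 2. CCT5 (epsilon, ENSG00000150753) lies at chr5:10249921-10266412 on the plus strand, CCT6A (zeta, ENSG00000146731) at chr7:56051630-56063989 on the plus strand, and CCT8 (theta, ENSG00000156261) at chr21:29055805-29073797 on the minus strand.

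Each subunit gene was counted deeply, from 5354 counts (CCT5, the lowest library) to 30116 counts (TCP1, the highest). Exons of TCP1 overlap those of ACAT2 on the other strand, which had 625 to 3277 counts, and exons of CCT4 overlap those of COMMD1, which had 147 to 279. No source used here gives the strand setting of the counting, so reads from these overlaps cannot be assigned with certainty. Pseudogenes of the family were low beside their parents: CCT6P1 had 115 to 286 counts, CCT6P3 80 to 188, CCT8P1 104 to 203 and CCT5P1 3 to 24. Reads shared between CCT6A and its pseudogenes would be split by a rule that is not given, so its value is uncertain to that extent.

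Promoter sequence is shown because the heat shock elements of chaperone genes, repeated GAA units in alternating direction, are the best known control sequence of this gene class. Windows of 300 bases, from 250 before to 50 after an annotated start, were taken from RefSeq (GRCh38.p14), which gave 9 windows for 7 of the 8 members (2 each for CCT2 and CCT4) and none for CCT6A. Counts below are of genes with a match in any of their windows, and percentages are of single windows. A pair of facing or opposed units, GAANNTTC or TTCNNGAA on either strand, occurred in 3 of 7 members (TCP1, CCT2 and CCT4; 3 of their 9 windows), in 13 of 19 cytosolic heat shock genes and in 13.5% of all 35116 windows. The stretch with the match is given for these 3 genes, 5′ to 3′ along the gene, with the matching letters in capitals. Distances are from the RefSeq start of the window, which for these 3 genes lies inside the gene span given above, not at its end.
TCP1, chr6:159789815-159789844 on the minus strand, match 224 to 231 bases before the start: tcgtttgaggcGAAGGTTCaacctcttccc
CCT2, chr12:69585789-69585818 on the plus strand, match 82 to 89 bases before a later start of the gene: cccggagcgaaGAAATTTCtagtgtgggac
CCT4, chr2:61888607-61888636 on the minus strand, match 38 to 45 bases after the start: cccgacgccggcgccgctTTCTGGAAggtt
The longer run of 3 units, GAANNTTC followed by NNGAA or TTCNNGAA followed by NNTTC, was in 0 of 7 members, in 6 of 19 heat shock genes and in 0.49% of all windows. Both cytosolic HSP90 genes carried it and are printed for comparison with the shorter matches above.
HSP90AA1, chr14:102087111-102087140 on the minus strand, match 76 to 88 bases before the start: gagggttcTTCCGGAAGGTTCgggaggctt
HSP90AB1, chr6:44247823-44247852 on the plus strand, match 100 to 112 bases before the start: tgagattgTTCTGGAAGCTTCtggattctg
Every 3-unit run contains the pair, so the counts for both motifs overlap. CCAAT was in 4 of 7 members (TCP1, CCT2, CCT3 and CCT8; 4 of the 9 windows) and in 34.6% of all windows, the E-box CACGTG in 0 of 7 members and 7.26% of windows, and TGATGNAA, the core of the amino acid response element, in 0 of 7 and 3.62%. These are letter matches, and the data here do not measure binding.

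All 8 subunit genes were most abundant in the medium with neither nutrient and least abundant in glucose alone or glucose with NH4Cl. Levels are in CPM, counts relative to the TMM-scaled library total, and are given for replicates 1, 2 and 3 and as mean ± SD (n = 3 in every medium). In bulk RNA, fewer cells that express a gene and less of its RNA in each cell cannot be told apart. Summed over the 8 genes, the level was 8728 ± 34.8 CPM with neither nutrient, 4763 ± 24.8 with glutamine, 4526 ± 45.4 with both, 3622 ± 45.7 with glucose and 3568 ± 22.2 with glucose and NH4Cl. As a plain share of all counts, which uses no TMM factor, the 8 genes took 0.692% with neither nutrient, 0.479% with glutamine, 0.487% with both, 0.388% with glucose and 0.385% with NH4Cl. The medium with both nutrients stood above glutamine alone on this second scale and below it on the first.

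**Figure D1:**
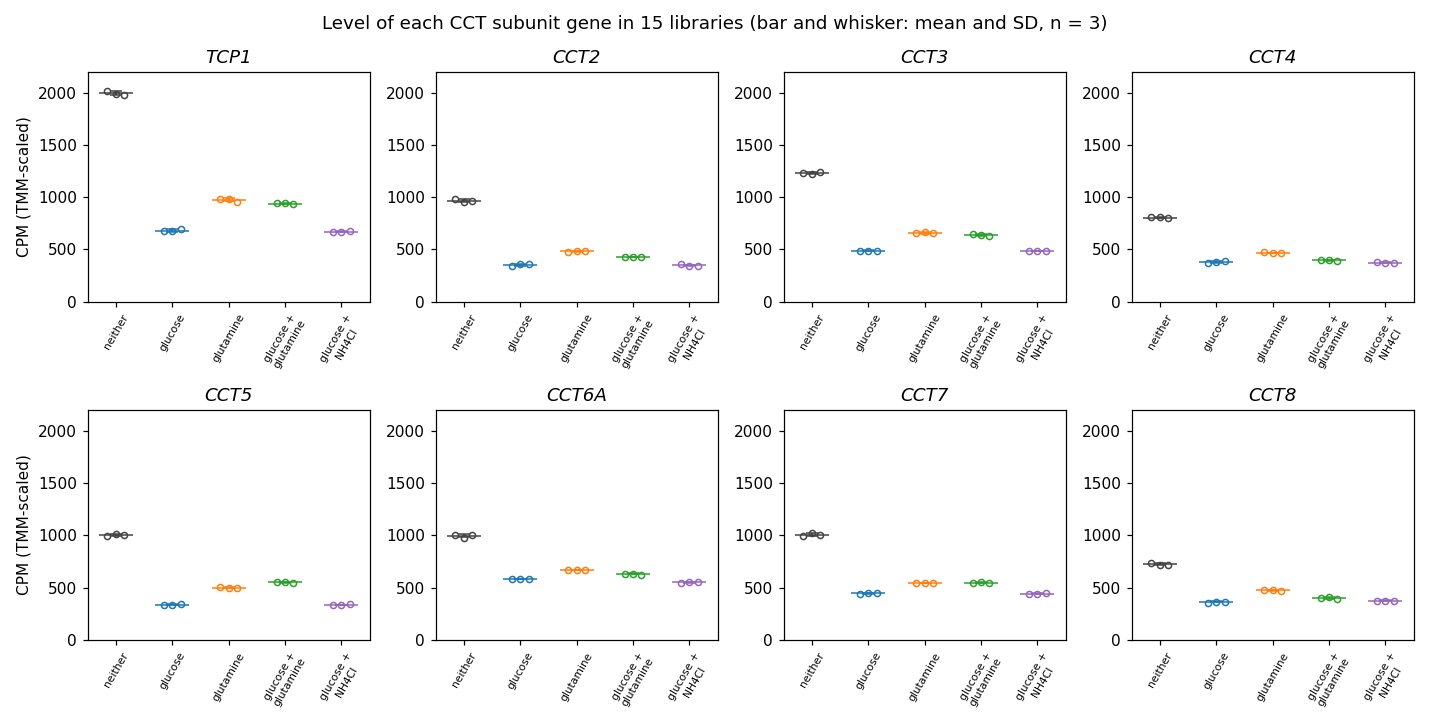
Level of each subunit gene in CPM (TMM-scaled, linear axis from 0) in the 15 libraries, 1 panel per gene, with circles for libraries and a bar and whisker for mean and SD (n = 3). The medium with neither nutrient stands highest in all 8 panels, from 724 CPM (CCT8) to 1997 CPM (TCP1).

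TCP1, the alpha subunit for which the complex was first named, stood at 2021, 1990.0 and 1980.4 CPM with neither nutrient. Its libraries read 982, 986 and 957 CPM with glutamine, 945, 942 and 930 with both, 671, 679 and 691 with glucose, and 665, 664 and 674 with glucose and NH4Cl. Only the last pair of media overlapped. CCT5, the epsilon subunit, which neighbours CCT7 and CCT2 in the ring, read 998, 1009.4 and 999 CPM with neither nutrient and 554, 549 and 548 with both. It read 501, 495 and 499 CPM with glutamine, 331, 335 and 343 with glucose, and 329, 331 and 338 with NH4Cl. CCT5 was the 1 gene of the 8 whose libraries with both nutrients all lay above those with glutamine alone.

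CCT6A, the zeta subunit, had libraries that read 1006.9, 979 and 1003.4 CPM with neither nutrient, 670, 672 and 665 with glutamine, and 633, 634 and 625 with both. With glucose it read 578, 583 and 579 CPM, and with NH4Cl 547, 552 and 556, so that no pair of media overlapped. CCT4, the delta subunit, read 806, 809 and 797 CPM with neither nutrient, 470, 463 and 462 with glutamine, and 399, 393 and 388 with both. With glucose it read 370, 382 and 386 CPM, the highest just under the lowest library with both nutrients, and with NH4Cl 377, 370 and 370. The media without glutamine and with glucose overlapped for CCT4.

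CCT2, the beta subunit, which has also been described as an autophagy receptor outside the ring, read 980, 957 and 962 CPM with neither nutrient and 342, 359 and 355 with glucose. Its libraries with glutamine (473, 486 and 480 CPM), with both nutrients (430, 427 and 428) and with NH4Cl (355, 344 and 344) lay between or beside these, and NH4Cl overlapped glucose alone. CCT3, the gamma subunit, read 1229.8, 1224.9 and 1238.7 CPM with neither nutrient, 653, 663 and 653 with glutamine and 651, 636 and 624 with both. With glucose it read 481, 487 and 488 CPM and with NH4Cl 483, 480 and 485, again overlapping. For CCT3 the libraries with glutamine were separated from those with both nutrients by the narrow step from 653 to 651 CPM.

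CCT7, the eta subunit, read 992, 1024.6 and 1004.3 CPM with neither nutrient, 540, 545 and 548 with glutamine, and 546, 555 and 540 with both. With glucose it read 442, 451 and 448 CPM and with NH4Cl 438, 436 and 447. Here glutamine and both nutrients overlapped, as did glucose with and without NH4Cl. CCT8, the theta subunit, read 734, 718 and 718 CPM with neither nutrient, 478, 475 and 471 with glutamine, and 404, 405 and 393 with both. With glucose it read 357, 365 and 364 CPM and with NH4Cl 376, 369 and 376, and CCT8 was the 1 gene whose libraries with NH4Cl all lay above those with glucose.

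The order of the media was therefore the same in 6 of the 8 genes at its upper end: neither nutrient, then glutamine, then both. Of these 6, TCP1, CCT3 and CCT6A had both nutrients above glutamine when scaled by library totals alone. In CCT5 both nutrients stood above glutamine (log2 difference 0.14 ± 0.02, SE of the fit, edgeR adjusted p = 6.45e-11). In CCT7 they did so by 0.01 ± 0.02, which was not called (edgeR adjusted p = 0.776). At the lower end, glucose alone and glucose with NH4Cl were not called different in 7 genes and were in CCT6A.

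The comparison of glucose alone with neither nutrient is between media that differ in the sugar, each given for the same 12 h. All 8 subunit genes were lower with glucose, by the quasi-likelihood F test of edgeR with Benjamini-Hochberg adjustment over all genes tested, where 37.9% of all genes were called lower. CCT5 fell by 1.57 on the log2 scale (SE 0.02, a 2.98-fold difference, edgeR adjusted p = 1.67e-139), and TCP1 by 1.55 (SE 0.018, 2.94-fold). CCT2 (-1.46), CCT3 (-1.34), CCT7 (-1.17), CCT4 (-1.09) and CCT8 (-1.0) lay between these and CCT6A, which fell least (-0.78 ± 0.019, 1.72-fold, edgeR adjusted p = 3e-93). The median of the 8 was -1.26, against 0.05 over all genes. Without glucose replicate 2 all 8 were called lower, from -1.58 to -0.79.

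Glutamine alone also left every subunit gene lower than with neither nutrient, all 8 called by edgeR where 35.8% of genes were called lower. TCP1 (-1.03 ± 0.017), CCT2 (-1.01 ± 0.02) and CCT5 (-1.01 ± 0.02) were about 2-fold lower. CCT3 (-0.91), CCT7 (-0.89), CCT4 (-0.79), CCT8 (-0.61) and CCT6A (-0.57) followed, with a median of -0.90. With both nutrients all 8 were again lower than with neither, where 35.3% of genes were called lower. There CCT2 led (-1.17 ± 0.02), before TCP1 (-1.09), CCT4 (-1.03), CCT3 (-0.95), CCT7 (-0.88), CCT5 (-0.87), CCT8 (-0.85) and CCT6A (-0.66). With glucose and NH4Cl all 8 were lower than with neither nutrient too, from CCT5 (-1.59) to CCT6A (-0.85), where 37.9% of genes were called lower. These comparisons share the libraries with neither nutrient, so their like order of genes is not independent evidence.

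The size of these falls depends on the scaling. Scaled by library totals alone, the median of all genes moved up by 0.435 for glucose against neither nutrient, by 0.343 for glutamine, by 0.442 for both and by 0.445 for glucose with NH4Cl. On that scale all 8 subunit genes were still called lower: CCT5 by -1.14, TCP1 by -1.12 and CCT6A by -0.35 with glucose, TCP1 by -0.69 and CCT6A by -0.23 with glutamine, and CCT2 by -0.73 and CCT6A by -0.22 with both. Of all 16889 genes, 3539 were called lower with glucose on that scale, 3314 with glutamine, 2413 with both and 3327 with glucose and NH4Cl. Higher genes made up 51.3% of all calls for glucose and 74.1% on library totals, 50.8% and 74.2% for glutamine, 51.2% and 81.8% for both, and 51.1% and 75.5% for glucose with NH4Cl. The 20 cytosolic heat shock genes moved with this: they took 9.26% to 9.36% of all counts with neither nutrient and 0.863% to 0.869% with glucose. Their part in the scaling was not tested.

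**Figure D2:**
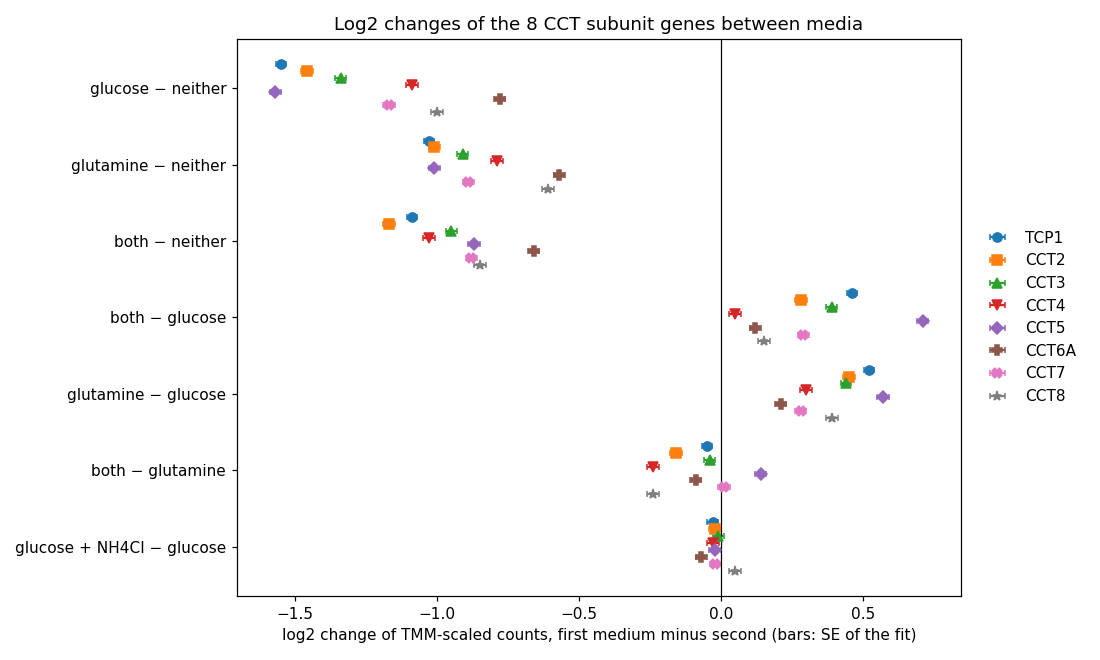
Log2 changes of the 8 subunit genes between media (first medium minus second, TMM-scaled counts), with 1 marker per gene and bars for the SE of the fit. All markers lie left of 0 against the medium with neither nutrient, and all lie right of 0 where glutamine was added to glucose, from 0.05 (CCT4) to 0.71 (CCT5).

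Glutamine added to glucose names the comparison of the medium with both nutrients with glucose alone. Each medium was given for the same 12 h, so the amino acid was not added to cells already in glucose. All 8 subunit genes were called higher by edgeR, where 34.2% of all genes were. CCT5 rose most, from 336 ± 6.12 to 550 ± 3.19 CPM (log2 0.71 ± 0.02, 1.64-fold, edgeR adjusted p = 8.46e-81). TCP1 rose from 680 ± 10.3 to 939 ± 8.12 CPM (0.46 ± 0.018) and CCT3 from 485 ± 3.85 to 637 ± 13.4 CPM (0.39 ± 0.019). CCT7 (0.29), CCT2 (0.28), CCT8 (0.15) and CCT6A (0.12) rose less. The median was 0.29, against 0.00 over all genes. Without glucose replicate 2 all 8 were called higher, from 0.06 to 0.71, with CCT4 lowest (edgeR adjusted p = 0.0182).

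CCT4 stood at the edge of this call, at 379 ± 8.34 CPM with glucose and 394 ± 5.79 CPM with both (log2 0.05 ± 0.021, 1.04-fold, edgeR adjusted p = 0.0165). It was not called with DESeq2 size factors (adjusted p = 0.0731), without the low-count filter (0.15), by the Wald test of DESeq2 (0.0681), or without glucose replicate 1 (edgeR adjusted p = 0.137) or replicate 1 with both nutrients (0.0828). Tested against a change of 1.2-fold, 3 of the 8 genes were called higher, beside 3814 of all 16889 genes.

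Glutamine alone also stood above glucose alone in all 8 genes (33.5% of genes were called higher), from CCT6A (log2 0.21 ± 0.019) to CCT5 (0.57 ± 0.021), with TCP1 at 0.52, CCT2 at 0.45, CCT3 at 0.44, CCT8 at 0.39, CCT4 at 0.30 and CCT7 at 0.28. Without glucose replicate 2 all 8 were called higher as well, from 0.21 to 0.57. So CCT4, CCT6A and CCT8, which differed least between glucose and both nutrients (0.05, 0.12 and 0.15), differed more between the single nutrients. TCP1, CCT2 and CCT3 also did, while CCT5 (0.71 and 0.57) and CCT7 (0.29 and 0.28) did not.

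NH4Cl added to glucose supplies ammonium, which cells also release from glutamine, and the study set this medium beside the one with glutamine. Of the 8 subunit genes 0 were called higher and 1 lower by edgeR (29.6% of all genes were called in either direction, 12.7% higher and 16.9% lower). CCT6A fell from 580 ± 2.6 to 551 ± 4.27 CPM (log2 -0.07 ± 0.019, 1.05-fold, edgeR adjusted p = 0.00116). Without glucose replicate 2 the counts of called subunits were the same, 0 higher and 1 lower (CCT6A, -0.07, edgeR adjusted p = 0.0109). This call was lost without the low-count filter (adjusted p = 0.492) and against a 1.2-fold change. CCT8 stood at 362 ± 4.78 CPM with glucose and 374 ± 4.06 CPM with NH4Cl (0.05 ± 0.021, edgeR adjusted p = 0.0952), and was called higher with DESeq2 size factors (0.0426), with library totals alone (0.0213), by the Wald test of DESeq2 (0.0331) and in a fit of both media alone (0.023).

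The other 6 subunits had log2 values between -0.03 (TCP1, CCT4) and -0.01 (CCT3) with NH4Cl, each with an SE of 0.018 to 0.021 and overlapping libraries. Tested directly, glucose with NH4Cl stood below glucose with glutamine in all 8 genes (33.4% of all genes were called lower). CCT5 differed by -0.73 ± 0.021 (edgeR adjusted p = 6.24e-82), TCP1 by -0.49, CCT3 by -0.40, CCT7 by -0.31 and CCT2 by -0.30. CCT6A (-0.19), CCT8 (-0.10) and CCT4 (-0.08) differed less. CCT4 was not called there without the low-count filter (adjusted p = 0.129). Against a 1.2-fold change 5 of the 8 were called lower, beside 3371 of all 16889 genes. Against glutamine alone, glucose with NH4Cl was lower in all 8 genes (32.8% of genes called lower), from -0.58 (CCT5) to -0.28 (CCT6A). With library totals the median over all genes shifted by 0.102 in that comparison, and the higher share of all calls went from 49.1% to 61.4%.

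Glucose added to glutamine split the subunits. By edgeR 6 were called lower, 1 higher and 1 in neither direction, where 32.6% of all genes were called higher and 33% lower. CCT4 fell from 465 ± 4.27 to 394 ± 5.79 CPM (log2 -0.24 ± 0.021, edgeR adjusted p = 9.39e-23) and CCT8 from 475 ± 3.32 to 401 ± 6.69 CPM (-0.24 ± 0.021). CCT2 (-0.16), CCT6A (-0.09), TCP1 (-0.05) and CCT3 (-0.04) fell less, CCT5 rose (0.14 ± 0.02), and CCT7 stood at 0.01.

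With library totals alone, where the median of all genes moved up by 0.098, TCP1 (0.04), CCT3 (0.05) and CCT6A (0.01) changed sign, CCT7 was called higher (0.11), and 4 subunits were called higher and 3 lower in all. In that scaling 6762 of all 16889 genes were called higher and 4370 lower. Higher genes made up 60.7% of all calls, against 49.7% with TMM. CCT3 (edgeR adjusted p = 0.0305) was not called without glutamine replicate 2 (0.113), without replicate 2 (0.0689) or 3 (0.228) with both nutrients, or without the low-count filter (0.121). CCT7 changed sign to -0.01 without that filter. The falls of CCT4, CCT8 and CCT2 and the rise of CCT5 kept their direction under all scalings. Against a 1.2-fold change 0 of the 8 were called, beside 38.4% of all genes.

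The 4 media without NH4Cl form a 2 by 2 design, in which the interaction is the effect of glutamine with glucose minus its effect without glucose. It was above 0 in all 8 subunit genes (edgeR, where 36.8% of genes were called above 0): glutamine went with higher levels beside glucose and with lower levels where glucose was missing. CCT5 had the highest value (log2 1.72 ± 0.028, edgeR adjusted p = 6.45e-121), followed by TCP1 (1.5 ± 0.025), CCT3 (1.30), CCT2 (1.29) and CCT7 (1.18). CCT4 (0.84 ± 0.029), CCT8 (0.76 ± 0.029) and CCT6A (0.70 ± 0.027) had the lowest. With library totals alone all 8 were still called above 0, from CCT6A (0.36) to CCT5 (1.38), although the median of all genes fell by 0.335 and the share of calls above 0 went from 49.2% to 33.8%. On that scale 4328 of all 16889 genes were called above 0.

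Agreement between the 8 genes was described by Pearson correlations of log2 CPM (prior count 2), with no test, because the libraries share their media and the values their scaling. Over 15 libraries the 28 pairs had r from 0.917 (CCT4 and CCT5) to 1.0 (TCP1 and CCT3), with a median of 0.988. The medium with neither nutrient carries much of this: over the other 12 libraries the lowest r was 0.624 (again CCT4 and CCT5), the median 0.936 and the highest 0.998. With library totals alone the lowest was 0.855 and the median 0.974. The 14 core subunits of the proteasome, another large complex with fixed composition, had a median r of 0.939 over 91 pairs, and 0.804 without the medium with neither nutrient.

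The SD of the log2 changes over the 8 genes was 0.28 for glucose against neither nutrient, 0.18 for glutamine, 0.16 for both, 0.21 for glutamine added to glucose and 0.03 for NH4Cl. For the proteasome core the same values were 0.38, 0.17, 0.08, 0.37 and 0.09. Set against the mean profile of the other 7, CCT3 and CCT7 each ranked 1 of 16882 genes in closeness (root mean square log2 differences of 0.045 and 0.052). CCT2 ranked 65, CCT4 84, CCT8 155 and TCP1 214, and CCT6A (422) and CCT5 (640) were farthest, at 0.184 and 0.189.

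How far the genes moved apart shows in their shares of the complex, each gene's counts per kilobase of exonic length divided by the sum over the 8 genes in the same library. This measure needs no scaling between libraries. TCP1 made up 18.9 ± 0.127% with neither nutrient, 16.7 ± 0.188% with glutamine, 17.1 ± 0.0336% with both, 15.1 ± 0.113% with glucose and 15 ± 0.0793% with NH4Cl. CCT6A went the other way, from 11.9 ± 0.166% with neither nutrient to 16.3 ± 0.172% with glucose, and stood at 14.4% with glutamine, 14.5% with both and 15.7% with NH4Cl. Between neither nutrient and glucose the shares of CCT8, CCT4 and CCT7 rose as well, and those of CCT5, CCT2 and CCT3 fell, with no overlap of libraries. The share of TCP1 was highest and that of CCT6A lowest in the medium where the summed level was highest. CCT2 was likewise highest and CCT8 lowest there, without overlap with any other medium.

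When glutamine was added to glucose, the shares of CCT5 (2.14 points), TCP1 (1.97) and CCT3 (0.98) went up and those of CCT4 (-2.19), CCT6A (-1.79) and CCT8 (-1.10) went down, with no overlap of libraries. CCT2 (-0.04) and CCT7 (0.03) overlapped. CCT5 stood at 6.31% with glucose and 8.45% with both, and CCT4 at 14.7% and 12.5%. In the ring CCT4 neighbours TCP1 and CCT2, and CCT6A neighbours CCT3 and CCT8, so the genes that moved up and those that moved down are not 2 separate arcs.

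NH4Cl added to glucose left the shares of TCP1, CCT2, CCT4, CCT5 and CCT7 overlapping, while that of CCT6A was 0.58 points lower, that of CCT8 0.56 points higher and that of CCT3 0.11 points higher without overlap. Per kilobase TCP1 was the most abundant subunit with neither nutrient (405 ± 4.27 CPM per kilobase) and CCT5 the least (172 ± 1.07). With glucose alone CCT6A led (149 ± 0.665), before TCP1 (138 ± 2.09) and CCT4 (134 ± 2.95). That order rests on the exonic length used: with the basic gene models TCP1 led in all 5 media, with 18.5% of the complex in glucose and CCT6A at 14.5%.

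**Figure D3:**
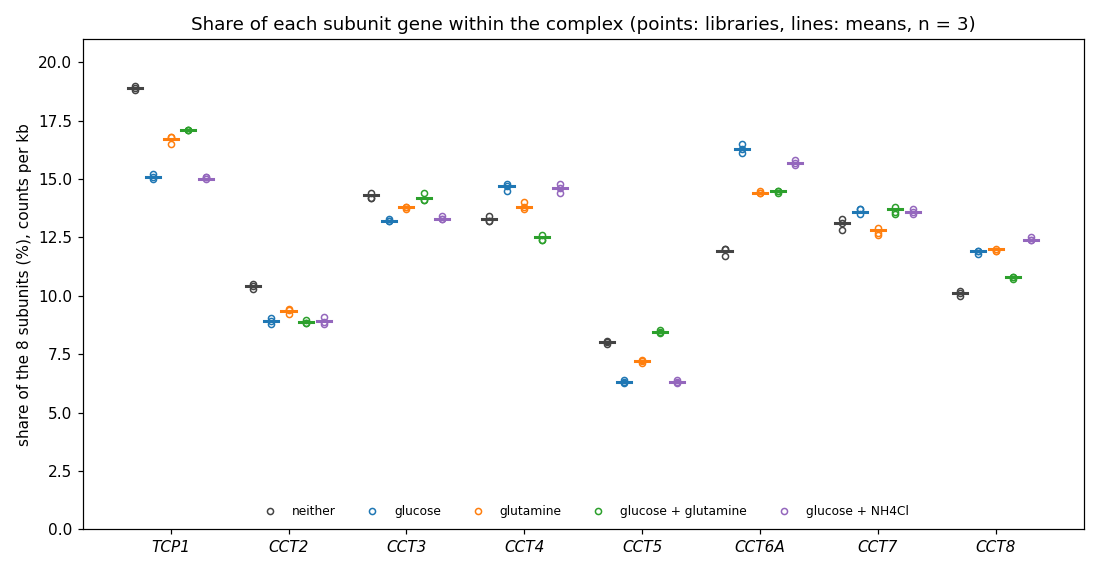
Share of each subunit gene among the 8 (counts per kilobase, percent, linear axis from 0) in each library, colored by medium, with lines for means (n = 3). TCP1 and CCT6A move in opposite directions between neither nutrient and glucose, and CCT5 stands highest with both nutrients.

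Of 7882 genes whose mean reached 20 CPM, the 6 closest to the mean profile of the 8 subunits were TIMM50, TM2D2, EIF2S1, MRPL47, DHX30 and PRPF19. Their root mean square log2 differences over the 15 libraries were 0.052 to 0.059 and their r 0.993 to 0.997. TIMM50, a subunit of the mitochondrial import machinery, stood at 406 ± 11.3 CPM with neither nutrient, 178 ± 4.42 with glucose, 244 ± 1.2 with glutamine and 215 ± 7.46 with both. EIF2S1, the alpha subunit of the initiation factor eIF2, stood at 390 ± 4.24, 179 ± 4.48, 235 ± 4.7 and 220 ± 1.45 CPM in the same media. PRPF19, a splicing factor and ubiquitin ligase, stood at 256 ± 3.99, 120 ± 1.17, 151 ± 3.12 and 149 ± 2.87 CPM.

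Prefoldin and the cochaperones work beside the chaperonin. All 6 prefoldin subunits fell with glucose against neither nutrient (median -0.75), from PFDN6 (-1.66 ± 0.045) and PFDN1 (-0.97) over PFDN5 (-0.78), VBP1 (-0.71) and PFDN4 (-0.71) to PFDN2 (-0.61), and all 6 were also called lower on library totals. Of all genes 37.9% were called lower with TMM, and 3539 of 16889 on library totals. When glutamine was added to glucose, 4 rose, 1 fell and 1 was not called (34.2% of all genes were called higher and 33.7% lower). PFDN6 rose by 0.88 ± 0.048, PFDN5 by 0.17, PFDN1 by 0.14 and VBP1 by 0.09, while PFDN2 fell from 97.0 to 59.0 CPM (-0.72 ± 0.036) and PFDN4 stood at -0.03.

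Of 5 cochaperone genes 4 were tested and PDCL2 was at or near 0. With glucose against neither nutrient all 4 were lower: PDCD5 (-1.21 ± 0.027), PDCL3, which assists actin and tubulin folding (-0.80), TXNDC9 (-0.63) and PDCL (-0.31), although PDCL turned to 0.13 on library totals. Over all genes 37.9% were called lower there with TMM. Glutamine added to glucose went with higher PDCL (0.54 ± 0.054), PDCL3 (0.46) and PDCD5 (0.38), and TXNDC9 stood at 0.06 and was not called. The SD of the log2 changes in that comparison was 0.51 over the prefoldin genes and 0.21 over the 8 subunits and over the cochaperones alike.

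Tubulin that leaves the chaperonin is passed to the tubulin folding cofactors, of which 5 of 6 were tested and TBCE was not used here. With glucose against neither nutrient 4 were lower, TBCA (-0.98 ± 0.032), TBCB (-0.94), ARL2 (-0.74) and TBCD (-0.61), and TBCC stood at 0.11 and was not called. On library totals these 4 were also called lower and TBCC was called higher. Of all genes 37.9% were called lower with TMM, and 3539 of 16889 on library totals. Glutamine added to glucose went with higher values of all 5, where 34.2% of all genes were called higher: TBCB (0.48 ± 0.026), TBCD (0.47), TBCA (0.23), TBCC (0.16) and ARL2 (0.16).

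Among the clients, 2 of 3 tested actin genes fell with glucose: ACTB went from 5263 CPM with neither nutrient to 959 CPM with glucose (log2 -2.46 ± 0.016) and ACTG1 from 8846 to 2727 CPM (-1.70 ± 0.014), both larger log2 changes than that of any subunit gene, and ACTA2 stood at -0.32 and was not called. ACTA1, ACTC1 and ACTG2 did not pass the low-count filter. All 12 tubulin genes were called lower in the same comparison (median -1.38, 10 of 12 on library totals), among them TUBB (-1.69), TUBA1B (-1.39), TUBB4B (-1.03) and TUBA1C (-0.79). Of all genes 37.9% were called lower with glucose, and 3539 of 16889 on library totals. Glutamine added to glucose raised ACTB (1.30), ACTA2 (0.70), ACTG1 (0.28) and 10 of 12 tubulin genes (median 1.12), among them TUBB (1.21), TUBB4B (1.19), TUBA1B (1.10) and TUBA1C (0.35). Clients with WD40 propellers and other clients were mixed, with 7 of 14 higher and 3 lower in that comparison: CDC20, an activator of the anaphase-promoting complex, rose by 0.32, GNB2 rose by 0.23, PLK1 fell by 0.35 and GNB1 stood at 0.03. Over all genes 34.2% were called higher and 33.7% lower with glutamine added to glucose. Tubulins and actins come as near-identical copies, so single values there are uncertain.

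The heat shock response is the other group to which chaperone genes belong. Of 20 cytosolic heat shock genes, 20 were lower with glucose than with neither nutrient (median -3.20), also on library totals, among them HSP90AA1 (-3.59 ± 0.014) and HSP90AB1 (-2.03 ± 0.014). Over all genes 37.9% were called lower there, and 3539 of 16889 on library totals. HSPA1A (-8.57) and HSPA1B (-8.55), near-identical copies whose reads cannot be told apart with certainty, fell from 25092 and 23562 CPM to 66.2 and 62.8 CPM. The subunit genes moved in the same direction, by -0.78 to -1.57, beside -0.93 to -10.64 for the heat shock genes. HSF1, the heat shock transcription factor, stood at 276 ± 5.9 CPM with neither nutrient and 157 ± 3.83 with glucose (-0.81 ± 0.028), and HSF2 fell by 0.77.

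With glutamine added to glucose 18 of 20 heat shock genes were called higher (median 1.04), such as HSPA1A (2.53), HSPA1B (2.46), HSP90AA1 (1.61) and HSP90AB1 (0.54). Over all genes 34.2% were called higher there. HSF1 stood at 165 ± 4.0 CPM with both nutrients and 157 ± 3.83 with glucose (0.06 ± 0.028, edgeR adjusted p = 0.0392). All 14 proteasome core genes fell with glucose against neither nutrient (median -1.23), close to the median of -1.26 of the chaperonin, and 13 of 14 rose with glutamine (median 0.58), such as PSMA7 (0.44), PSMB1 (0.37), PSMB4 (0.34) and PSMB7 (0.19). Of all genes 37.9% were called lower in the first of these comparisons and 34.2% higher in the second. None of these lists was tested as a set.

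**Figure D4:**
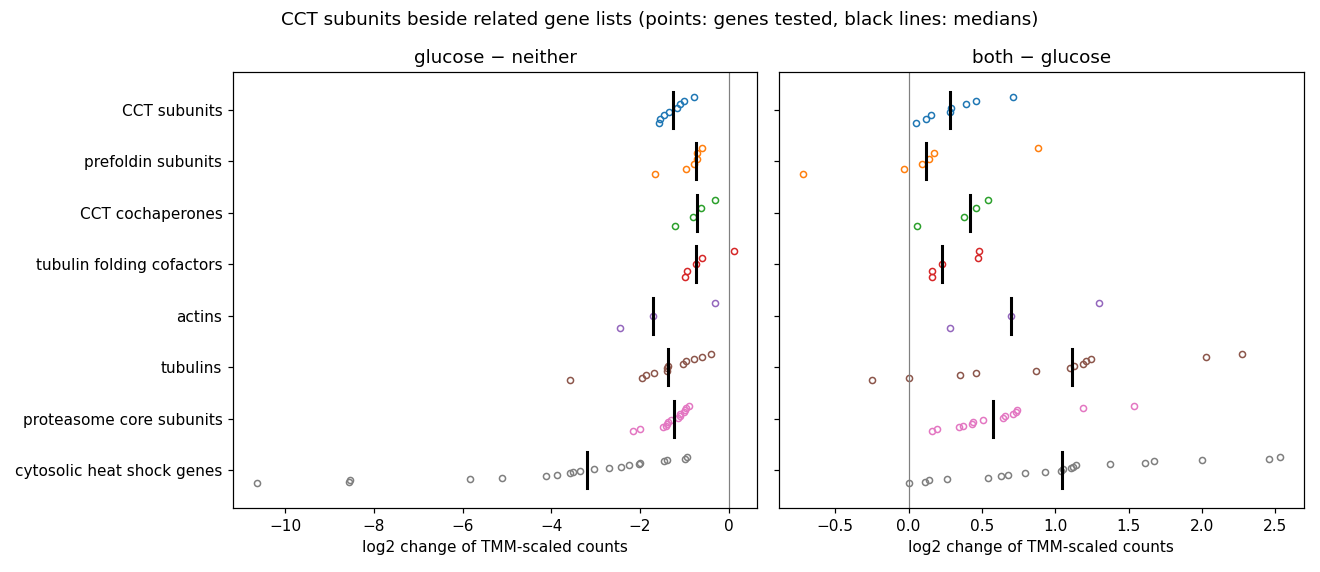
Log2 change of every tested gene in the chaperonin list and 7 related lists, for glucose against neither nutrient (left) and glutamine added to glucose (right), with black lines for medians and separate scales for both panels. The 8 subunits span -1.57 to -0.78 on the left, where the heat shock genes reach -10.64, and 0.05 to 0.71 on the right.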

How the data were processed

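RNA from 15 H1299 libraries was analysed. The authors deposited raw counts per Ensembl gene without normalization. The submitters' processing notes name the build GRCh38.p12 and the tools featureCounts, Subread 1.5.1 and HISAT2 2.1.0, without roles. No source used here gives the strand setting or the treatment of multimapping reads. Names and positions came from GENCODE 29, which holds 58275 of 58395 IDs.

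Counts were tested with edgeR 4.0.16 in R 4.3.3: TMM scaling, filterByExpr, 1 fit of 15 libraries with a mean per medium, robust quasi-likelihood F tests with 10 residual degrees of freedom, two-sided, Benjamini-Hochberg over 16889 genes, called at adjusted p under 0.05. The common biological coefficient of variation was 0.0221. Shares used exonic lengths. Named genes were all 8 subunits, all members of lists of at most 7 and otherwise the 4 most abundant, and the 6 genes most alike. Fibroblast and endothelial markers were given as sums only. Members and lists were chosen with earlier results of these data known.

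Alternatives were DESeq2 1.42.0 size factors and Wald test, library totals, no filter, at least 1 CPM in 3 libraries, a 1.2-fold null, compared media alone, a replicate term and leaving out each library. Basic-model lengths were added after seeing the data. On simulated data shaped like NH4Cl added to glucose (16412 genes), 30 of 50 genes changed 1.2-fold, 43 of 50 changed 1.5-fold, 49 of 50 changed 2-fold and 50 of 50 changed 4-fold were recovered, and 8 of 16212 unchanged genes were called.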

Additional observations from a re-analysis of the deposited data

Results flagged for a closer look

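For all 8 subunit genes the effect of glutamine with glucose differed from its effect without glucose, by the interaction test of edgeR. Its log2 value was 1.5 for TCP1, 1.29 for CCT2, 1.30 for CCT3, 0.84 for CCT4, 1.72 for CCT5, 0.70 for CCT6A, 1.18 for CCT7 and 0.76 for CCT8. Across all genes tested 36.8% were called above 0 for this interaction, so the call by itself does not set the subunits apart. Without glucose replicate 2, the library that stood apart in its medium, all 8 were called as well, from 0.70 to 1.72. Groups of 3 libraries were not searched for single outlying values.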

How the results depend on the processing

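With 14914127 to 19938691 counts per library, each subunit gene had at least 5354 counts. Changes near 1.2-fold were partly missed on simulated data. The changed genes there were not chosen to match the level of the subunits, so the missed share does not describe the subunits. Against a 1.2-fold change, genes called went from 11467 to 7417 for glutamine added to glucose, from 4998 to 444 for NH4Cl added, from 10918 to 6416 for NH4Cl in place of glutamine, from 11073 to 6485 for glucose added to glutamine, from 11226 to 6691 for glutamine against glucose alone and from 10880 to 6016 for glucose with NH4Cl against glutamine alone. The subunits called then numbered 3 higher with glutamine added, 0 lower with NH4Cl added, 5 lower with NH4Cl in place of glutamine and 0 in either direction with glucose added to glutamine. Of all 16889 genes, 3814, 216, 3371 and 6485 were called in the same ways, in this order. For glutamine against glucose alone CCT6A and CCT7 were no longer called, where 3305 of all 16889 genes were called higher. For glucose with NH4Cl against glutamine alone CCT6A was no longer called, where 3075 of all 16889 genes were called lower.

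With NH4Cl added to glucose, 1 subunit (CCT8) was called higher with DESeq2 size factors, library totals, the DESeq2 Wald test and the compared media alone, and 0 were called lower without the low-count filter. In that comparison CCT2 (0.00), CCT3 (0.01), CCT5 (0.01) and CCT7 (0.00) changed sign without the filter, CCT3 with library totals (0.00) and CCT3 (0.01) and CCT5 (0.00) with the compared media alone. With glucose added to glutamine, library totals gave 4 subunits higher and 3 lower, where 6762 and 4370 of all 16889 genes were. TCP1 stood at 0.04, CCT3 at 0.05 and CCT6A at 0.01. CCT7 changed sign there with DESeq2 size factors, the DESeq2 Wald test and without glutamine replicate 1 or replicate 2 with both nutrients (0.00 each), and without the filter (-0.01), and reached 0.02 with another library left out. The cause of these changes was not tested.

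The lowest correlation between subunits was 0.855 with library totals and 0.624 without the medium with neither nutrient, and the medians were 0.974 and 0.936. By raw counts TCP1 took 22.9% of the complex with neither nutrient, 18.8% with glucose, 20.5% with glutamine, 20.7% with both and 18.7% with NH4Cl, and with basic gene models 22.7%, 18.5%, 20.3%, 20.7% and 18.4%.

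Equal replicate numbers did not pair the libraries (median correlation of deviations 0 over 30 pairs, lowest -0.081, and the own number gave the best match for 6 of 15 libraries). A fit with the replicate block changed no subunit call and gave 11450 genes for glutamine added to glucose and 4953 for NH4Cl added.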

Other observations

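Of 5 chaperonin-like paralogs 4 were tested, and with glucose against neither nutrient 3 were called higher and 1 lower. Of all 16889 genes, 6735 were called higher and 6401 lower in that comparison. CCT6B, a paralog of CCT6A that is best known from testis, was near the floor, at 0.37 ± 0.2 CPM with neither nutrient, 1.61 ± 0.385 with glucose and 0.446 ± 0.129 with both nutrients, and it was called higher with glucose than with neither nutrient (log2 2.09 ± 0.377, edgeR adjusted p = 1.99e-07). BBS10, a chaperonin-like gene of the primary cilium, stood at 33.2 CPM with neither nutrient and 51.9 CPM with glucose (0.64 ± 0.051). BBS12, also of the cilium, stood at 3.01 and 6.24 CPM (1.05 ± 0.191, edgeR adjusted p = 4.69e-06). MKKS, another, fell by 0.58, which was not called on library totals. CCT8L2 had a mean of at most 0.0203 CPM in any medium.

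HSPD1, the mitochondrial chaperonin, fell from 2689 CPM with neither nutrient to 1168 CPM with glucose (log2 -1.20 ± 0.016), and HSPE1, its cochaperonin, from 157 to 23.0 CPM (-2.77 ± 0.043). When glutamine was added to glucose HSPE1 rose to 73.8 CPM (1.68 ± 0.047) and HSPD1 stood at 1153 CPM (-0.02 ± 0.016, edgeR adjusted p = 0.322). Of 7 genes of the R2TP and prefoldin-like complex, 5 rose and 1 fell with glutamine added to glucose, where 34.2% of all genes were called higher and 33.7% lower: RUVBL2 (0.68), RPAP3 (0.49), RUVBL1 (0.35), PIH1D1 (0.21) and UXT (0.17) were higher, PDRG1 fell by 0.64, and URI1 stood at 0.01.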
